A study of Homo sapiens with 72 samples.

Results

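Interferon-stimulated genes are the genes that a cell switches on when interferon binds its receptors. The 42 genes described here, of 20007 protein-coding genes in GENCODE release 44, were taken from a list of well-known interferon-stimulated genes and located on hg38. In textbook terms, type I interferon activates the receptor kinases JAK1 and TYK2, and a complex holding STAT2 and IRF9 then binds the interferon-stimulated response element in the promoters of these genes. Their products sense viral RNA, block viral entry, translation and replication, and attach the ubiquitin-like protein ISG15 to other proteins. In B cells and B-cell leukemias they can carry active marks at a low level without any added interferon.

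The study treated 3 human B-lineage cell lines with bryostatin, a natural product that activates protein kinase C, and mapped histone marks with Cut&Tag, in which an antibody directs a transposase to chromatin bearing a modification. Raji is a Burkitt lymphoma line that carries Epstein-Barr virus (EBV), whereas NALM6 and REH are B-cell precursor acute lymphocytic leukemia lines. Each line was left untreated or exposed to 1 nM bryostatin (overnight per the labels, a full day in the study's text), and each of the 6 line and treatment groups was profiled in 3 replicates for H3K4me2, H3K4me3 and H3K27me3, giving 54 libraries. H3K4me3 marks active promoters, H3K4me2 marks promoters and enhancers, and H3K27me3 marks chromatin repressed by Polycomb. No group received interferon. Each line is a single established cell line, and no source used here states whether replicates were separate cultures, so p-values measure the spread between libraries, which may be technical.

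The step between coverage values gave 5.12 to 47.9 M mapped reads for the 48 libraries scaled as RPKM (median 18.8 M). The other 6 libraries, all NALM6 replicate 1, carry another scaling, so tests of NALM6 signal are given with and without them. Counts and shares of NALM6 genes with a peak always include them. Peaks per library ran from 590 to 102183, and the extremes were both H3K27me3 libraries. EBV peaks were called in 18 of 18 Raji libraries and in 0 libraries of the other lines. H3K4me3 start peaks of the B-cell genes PAX5 and CD79B were called in 18 of 18 libraries, and those of MS4A1 in 6 of 6 Raji libraries and in none of either leukemia line. Of 4 precursor markers, 3 had H3K4me3 start peaks in all 6 libraries in NALM6 and REH and 1 in Raji. No H3K4me3 start peak was called at any of 6 markers of other lineages, and MPO had an H3K4me2 start peak in 4 of 6 REH libraries.

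A start peak is a called peak within 1 kb of any annotated transcript start of a gene. Absence of a peak means that signal stayed below the threshold of that library, not that the mark was absent. Promoters of 4 genes whose marks differed most plainly between lines, or whose call changed with the analysis, are shown first, as the 250 bases before the RefSeq start (GRCh38.p14). HERC5 lies at chr4:88456869-88457118 on the plus strand, PARP14 at chr3:122680589-122680838 on the plus strand, ISG15 at chr1:1013247-1013496 on the plus strand, and IFITM3 at chr11:320861-321110 on the minus strand. No annotated exon overlaps these stretches. Those of HERC5 and PARP14 are intergenic, whereas those of ISG15 and IFITM3 lie within the annotated span of the gene itself, downstream of its farthest annotated start. Capitals mark the response element core, GAAANNGAAA or TTTCNNTTTC on the other strand, with overlapping cores run together.
HERC5: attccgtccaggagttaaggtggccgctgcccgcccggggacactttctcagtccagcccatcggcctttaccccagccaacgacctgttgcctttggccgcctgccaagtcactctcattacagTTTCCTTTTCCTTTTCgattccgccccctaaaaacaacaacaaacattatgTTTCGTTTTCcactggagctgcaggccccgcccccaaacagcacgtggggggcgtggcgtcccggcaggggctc
PARP14: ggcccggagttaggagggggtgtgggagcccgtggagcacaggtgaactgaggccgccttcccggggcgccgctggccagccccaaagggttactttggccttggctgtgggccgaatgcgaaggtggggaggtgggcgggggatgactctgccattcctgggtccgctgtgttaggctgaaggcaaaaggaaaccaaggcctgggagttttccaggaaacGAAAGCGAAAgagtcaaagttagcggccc
ISG15: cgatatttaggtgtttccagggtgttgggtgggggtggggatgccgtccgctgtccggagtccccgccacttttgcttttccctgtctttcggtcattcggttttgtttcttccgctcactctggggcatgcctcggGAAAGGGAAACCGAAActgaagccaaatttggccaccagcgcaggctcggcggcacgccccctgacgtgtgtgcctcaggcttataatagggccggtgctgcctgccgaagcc
IFITM3: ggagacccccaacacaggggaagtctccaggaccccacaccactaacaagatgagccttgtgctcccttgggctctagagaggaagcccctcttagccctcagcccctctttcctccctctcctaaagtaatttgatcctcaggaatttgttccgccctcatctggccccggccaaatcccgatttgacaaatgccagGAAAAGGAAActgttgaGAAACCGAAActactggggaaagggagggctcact

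Peaks over these exact bases differed by line. Over the HERC5 stretch, with 3 cores, H3K4me3 peaks were called in 6 of 6 REH and 6 of 6 NALM6 libraries and in 0 of 6 Raji libraries. The PARP14 stretch, with 1 core, had the same H3K4me3 pattern. Over the ISG15 stretch, with 2 overlapping cores, both H3K4 marks were called in every Raji and REH library, and H3K4me3 in 2 untreated and 1 bryostatin-treated NALM6 library. Over the IFITM3 stretch, with 2 cores, both H3K4 marks were called in every REH library and in no Raji library, while H3K27me3 was called in 2 untreated and 2 treated libraries of Raji, in 2 and 2 of NALM6 and in none of REH.

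RefSeq promoter windows, 250 bases before to 50 after a start, matched 34 of the 42 genes, with 46 windows. TRIM22, IRF7, IFITM2, MX2, OASL, IFIT2, USP18 and OAS2 had no entry. The core was found in windows of 23 of the 34 genes (67.6%), against 4.38% of 27305 genes with a window. The gamma-activated site TTCNNNGAA, which reads the same on both strands, was found in 12 (35.3%), against 9.38% of genes. CpG observed over expected, a measure of CpG island content, was taken as the highest among the windows of a gene. It exceeded 0.6 in 15 of the 34 genes (44.1%), against 51.9% of genes, with a median of 0.458 against 0.634. At RSAD2 (1.06) and MX1 (0.91) the window with the highest value holds no core, and a core lies in another window. The 15 genes over 0.6 had an H3K4me3 start peak in a median of 12 of 18 libraries (range 2 to 18), and the 19 at or under it in a median of 2 (range 0 to 17). BST2 (0.0962), with peaks in 17 libraries, was the clearest exception among the CpG-poor genes, and OAS3 (0.731), with peaks in 2, among the CpG-rich ones. These are descriptions of letters and peaks, and the points share the same libraries.

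**Figure D1:**
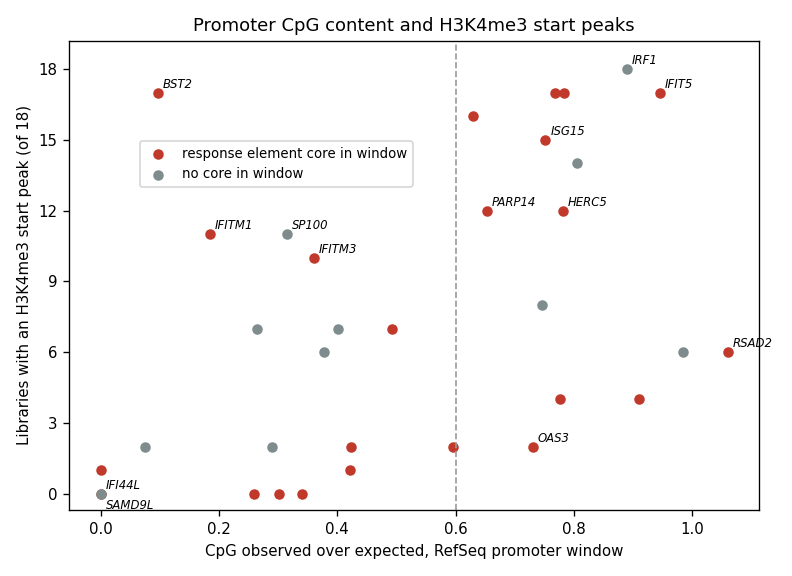
Highest CpG observed over expected among the RefSeq promoter windows of a gene (x axis, dashed line at 0.6) against the number of 18 libraries with an H3K4me3 start peak (y axis). There is 1 point per gene for 34 genes, red where any window of the gene holds a response element core. Genes right of the line have a median of 12 libraries and those left of it a median of 2, with BST2 at 17 on the left.

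Start peaks of H3K4me2 were most frequent in REH. In untreated cells, 77.8% ± 11.98 (SD, n = 3) of the 42 genes had an H3K4me2 start peak in REH, 53.2% ± 13.1 in Raji and 37.3% ± 15.5 in NALM6, against 57.4%, 51.3% and 39.0% of all protein-coding genes. The REH libraries ranged from 28 to 38 genes and the Raji libraries from 16 to 26, so these did not overlap, while NALM6 ranged from 9 (replicate 1) to 22. The REH libraries were mostly deeper, at 13.8 to 18.8 M reads against 6.70 to 13.9 M in Raji. The part of depth in these shares was not tested. In 3 of 3 untreated libraries the mark was found for 28 genes in REH, 16 in Raji and 7 in NALM6, against 54.2%, 44.5% and 25.6% of all genes. H3K4me3 start peaks were found for 50% ± 20.8 in REH, 38.9% ± 3.64 in Raji and 37.3% ± 14.0 in NALM6, against 49.99%, 53.1% and 45.9% of all genes. The REH libraries held 31, 15 and 17 of the 42 genes and the Raji libraries 18, 16 and 15, so the higher REH mean rests on replicate 1. The mark was found in 3 of 3 libraries for 15, 15 and 9 genes, against 42.2%, 52% and 32.4% of all genes. H3K27me3 was rarer, at 6.35% ± 3.64 in REH, 18.3% ± 15.9 in Raji and 3.97% ± 4.96 in NALM6, against 14.0%, 28.6% and 8.99% of all genes.

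**Figure D2:**
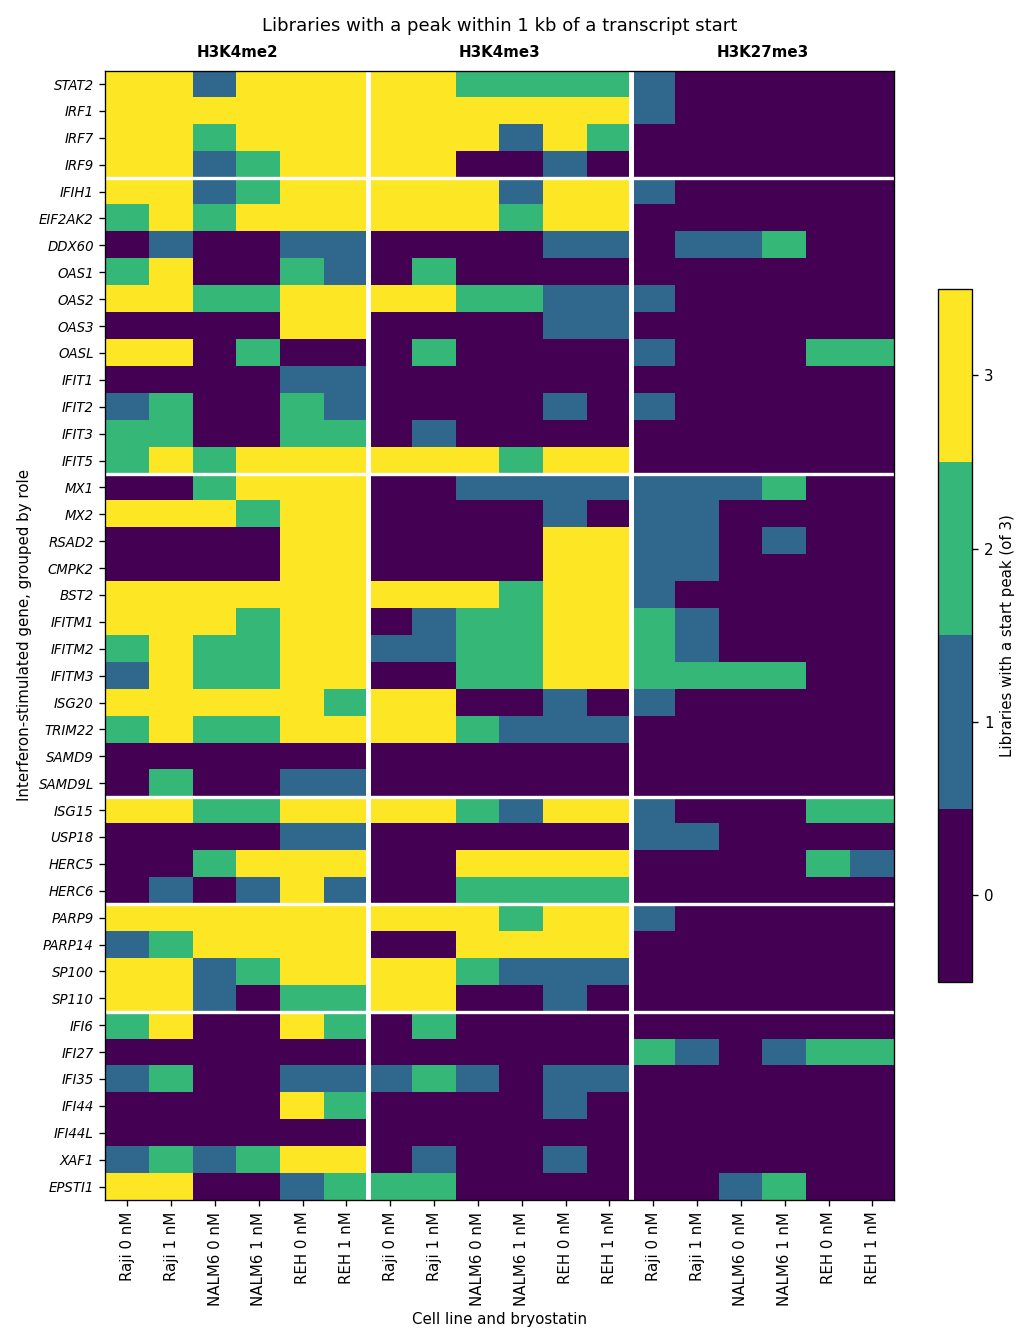
Number of libraries, of 3, with a start peak (color) for the 42 genes (rows, grouped by role between white lines) in each line without (0 nM) and with 1 nM bryostatin (columns), for the 3 marks. IRF1 is at 3 in every H3K4 column, CMPK2 and RSAD2 are at 3 for H3K4 marks in REH and at 0 in Raji and NALM6, and H3K27me3 columns are mostly at 0.

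The constant genes were few, but no share of all genes over the 18 libraries stands beside the counts given here. The weakest library of a mark limits how many genes can be constant. Start peaks covered 27.5% of all genes in untreated NALM6 replicate 1 for H3K4me2. For H3K4me3 they covered 26.0% in treated NALM6 replicate 3. IRF1, a transcription factor induced by interferon gamma, had both H3K4 start peaks in all 18 libraries of each mark, and BST2 (tetherin, which holds budding virions on the cell) and PARP9 (an ADP-ribosyltransferase family member) had H3K4me2 in all 18. At the other end, SAMD9, IFI44L and IFI27 had no H3K4me2 start peak in any library, and these 3 with IFIT1, USP18 and SAMD9L had no H3K4me3. SAMD9 is an antiviral factor that restricts poxviruses, IFIT1 binds the capped ends of viral RNA, and USP18 removes ISG15 from proteins. For H3K27me3, 0 genes had a start peak in every library and 20 had none.

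By role, the 4 signalling factors (STAT2, IRF1, IRF7 and IRF9) had H3K4me2 start peaks in all 6 libraries in both Raji and REH (4 of 4), and 4 of 4 had H3K4me3 in all 6 Raji libraries against 1 of 4 in REH and in NALM6. IRF9, the DNA-binding partner of STAT2, had H3K4me3 start peaks in 6 Raji libraries, 1 REH library and 0 NALM6 libraries. Among the 11 RNA sensors and translation inhibitors, H3K4me2 was found in all 6 libraries for 3 genes in Raji, 0 in NALM6 and 5 in REH. IFIT5 and EIF2AK2 had it in 5 of 6 NALM6 libraries. Among the 12 restriction factors the counts were 4, 2 and 9. The ISG15 system split: ISG15 itself had both H3K4 marks in all 6 Raji libraries, while HERC5, the ligase that attaches ISG15, had neither in Raji. Of the 4 PARP and nuclear body genes, 3 in Raji and 3 in REH had H3K4me2 in all 6 libraries. Of 7 other interferon-induced genes, 1 in Raji and 1 in REH had it. None of these counts by role has a share of all genes with a peak in all 6 libraries beside it. Of all genes, 54.2% had H3K4me2 in 3 of 3 untreated REH libraries, against 44.5% for Raji and 25.6% for NALM6. The part of these differences between lines in the counts by role was not tested.

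Several genes had H3K4me2 without H3K4me3. MX2, a dynamin-like GTPase that restricts retroviruses, had H3K4me2 in 3 of 3 and H3K4me3 in 0 of 3 libraries in untreated Raji and untreated NALM6. The same held for IFITM1 and OASL in untreated Raji, ISG20 in untreated NALM6 and IFI6 in untreated REH. This pattern covered 7.14% of the 42 genes in Raji against 0.57% of protein-coding genes, 4.76% against 0.56% in NALM6, and 2.38% against 2.09% in REH. Both marks in 3 of 3 libraries were found for 12 genes in untreated Raji (28.6%, against 42.9% of all genes), 4 in NALM6 (9.52%, against 20%) and 15 in REH (35.7%, against 41%).

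Comparison of untreated lines asked where the genes differ before treatment. The clearest differences were genes marked in every REH library and no Raji library. For H3K4me2 these were 7 of 42 genes (16.7%, against 6.6% of protein-coding genes): CMPK2, HERC5, HERC6, IFI44, MX1, OAS3 and RSAD2. The Raji libraries of this mark were mostly shallower than those of REH, and the part of depth in this pattern was not tested. RSAD2 (viperin) makes a nucleotide that stops viral RNA synthesis and CMPK2 is a mitochondrial nucleotide kinase. These neighbours share 1 region, chr2:6863511-6866940, because an annotated RSAD2 transcript starts there, so both genes are counted from it. The RSAD2 window that holds a response element core, chr2:6877527-6877826, lies outside that region. In REH the H3K4me2 signal of the shared region was 1.54, 1.52 and 1.78 times that of the median region. MX1, a GTPase that traps viral nucleoproteins, stood at 1.23, 1.10 and 1.06. OAS3, which makes the 2-5A signal that activates RNase L, stood at 0.761, 0.983 and 0.740. HERC5 stood at 0.942, 0.913 and 1.07, and HERC6 and IFI44 were lower, from 0.331 to 0.463. The values of CMPK2, MX1, OAS3 and HERC5 lie above 0.447, the highest of the signals of the smallest called region in the 6 Raji H3K4me2 libraries. Each line is scaled to its own median region, so 0.447 is not a threshold for REH values. The part of the calling threshold in this pattern was not tested. The reverse pattern, Raji only, held for OASL (2.38%, against 1.43%), a member of the OAS family without the synthetase activity, at 0.388, 0.459 and 0.369 in Raji.

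For H3K4me3, 6 genes (14.3%, against 2.59% of protein-coding genes) had a start peak in 3 of 3 untreated REH and 0 of 3 untreated Raji libraries: CMPK2, HERC5, IFITM1, IFITM3, PARP14 and RSAD2. In REH, PARP14 stood at 1.09, 1.12 and 1.04 and IFITM3 at 0.873, 0.894 and 1.15 median regions. None of the 42 genes had the reverse pattern (0%, against 2.17%).

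Against NALM6, EPSTI1 and OASL had H3K4me2 in Raji only (4.76%, against 4.5%), and IRF9, ISG20 and SP110 had H3K4me3 in Raji only (7.14%, against 2.89%). HERC5 and PARP14 had H3K4me3 in NALM6 only (4.76%, against 1.48%), so at these promoters both precursor lines differed from Raji. No gene had H3K4me2 in NALM6 only against Raji (2% of all genes) or REH (0.405%), or H3K4me3 in NALM6 only against REH (0.385%). These patterns ask for a peak in every untreated NALM6 library, replicate 1 among them. Over both treatments HERC5 and MX1 had H3K4me2 start peaks in 5 of 6 NALM6 and 0 of 6 Raji libraries. REH and not NALM6 had H3K4me2 at CMPK2, HERC6, IFI44, IFI6, OAS3 and RSAD2 (14.3%, against 8%) and H3K4me3 at CMPK2 and RSAD2 (4.76%, against 1.58%).

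Where a gene had a region called in all libraries of a comparison, its total signal was tested with limma, each library being scaled to its own median region. Because the scaling uses the regions of each comparison, values of 1 library differ slightly between comparisons. For H3K4me2 in untreated Raji and REH, 15 of the 42 genes could be tested, and 3 were higher in Raji and 6 lower at adjusted p under 0.05. Of all genes tested, 22.2% were higher and 22.4% lower, so 9 of 15 stands beside 44.7%. Without the scaling, which removed a median shift of -0.25 on the log2 scale, the counts were 1 higher and 7 lower. That shift is the same for every gene, and no share of all genes called without the scaling stands beside these counts.

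The IFITM genes, small membrane proteins that block fusion of viruses with endosomes, were the farthest below REH in Raji. IFITM3 stood at 2.56, 3.16 and 3.36 in REH and at 0.378, 0.681 and 0.470 in Raji, a log2 difference of -2.60 (SE 0.19, limma adjusted p = 1.8e-07). In Raji alone the peaks at IFITM3 merged to chr11:317831-319680, at and beyond the 3 prime end of the gene and clear of the promoter stretch printed above, and they came within 1 kb of an annotated start in 1 of 3 untreated libraries. IFITM1 and IFITM2 share 1 region in this comparison, at 2.43, 2.997 and 3.41 in REH and 0.601, 0.517 and 0.559 in Raji (log2 difference -2.39, SE 0.14, limma adjusted p = 2.77e-08). The 3 genes are neighbours on chromosome 11 and have similar sequences, so reads could be shared between copies.

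ISG20, an exonuclease that degrades viral RNA, went the other way: it stood at 0.501, 0.535 and 0.420 in REH and at 2.66, 3.05 and 3.07 in Raji (log2 difference 2.60, SE 0.13, limma adjusted p = 7.69e-09). MX2 was lower in Raji, at 0.527, 0.461 and 0.578 against 1.25, 1.19 and 1.00 (log2 difference -1.14, SE 0.15, limma adjusted p = 3.64e-05). IRF9 (0.70) and OAS2 (0.44) were also higher in Raji, and ISG15 (-0.58) and BST2 (-0.34) lower, each at limma adjusted p under 0.05. The remaining 6 tested genes were between -0.40 (IRF7) and 0.39 (STAT2), and none passed.

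For H3K4me3, 8 genes could be tested, of which 2 were higher in Raji (24.3% of all genes) and 5 lower (25.6%). Without the scaling, which removed a shift of -0.18 from every gene, 0 were higher and 5 lower, again with no share of all genes beside them. IFIT5, which binds viral RNA, stood at 0.770, 0.646 and 0.590 in REH and at 0.214, 0.245 and 0.170 in Raji (log2 difference -1.68, SE 0.18, limma adjusted p = 4.24e-05). EIF2AK2, the kinase PKR that halts translation on double-stranded RNA, stood at 0.500, 0.508 and 0.534 against 0.121, 0.190 and 0.188 (log2 difference -1.66, SE 0.20, limma adjusted p = 0.000105). In both genes every Raji library was below every REH library. ISG15 (-0.95), IRF1 (-0.76) and IRF7 (-1.14, but 0.018 after quantile normalization) were lower in Raji as well. BST2 (0.96) and IFIH1 (0.69), the RNA sensor MDA5, were higher in Raji. BST2 was thus lower in Raji for H3K4me2 and higher for H3K4me3.

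**Figure D3:**
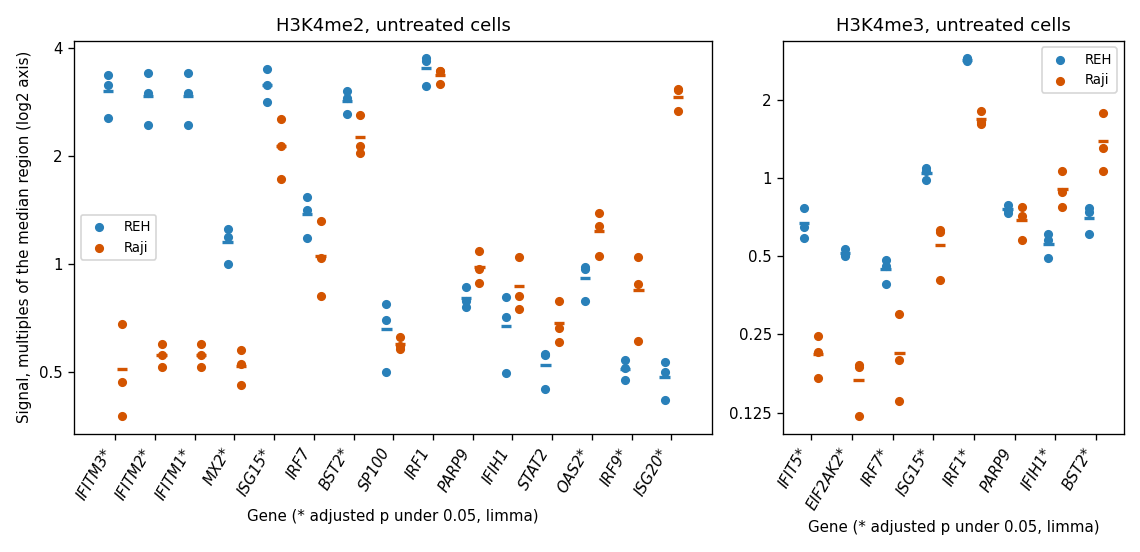
Total signal of start regions in untreated REH (blue) and Raji (orange), 1 point per library and a bar at the mean of 3, as multiples of the median region on a log2 axis, for the 15 genes testable for H3K4me2 (left) and the 8 for H3K4me3 (right), ordered by log2 difference. IFITM3 is at the left end of H3K4me2 (-2.60), ISG20 at the right end (2.60), and IFIT5 at the left end of H3K4me3 (-1.68).

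Raji against NALM6 gave 4 of 7 genes called for each mark. Both counts fell to 0 without centring, and to 0 of 2 and 0 of 1 genes with peaks above the median signal. The values without centring keep the other scaling of NALM6 replicate 1, so that refit cannot judge the calls. The H3K4me2 count was 1 without Raji replicate 3 and 2 without Raji replicate 1 or 2 or NALM6 replicate 2 or 3. For H3K4me2, ISG20 was higher in Raji (log2 difference 1.72) and MX2 (-1.62), IFITM1 and IFITM2 (-2.25, 1 shared region) lower, against 7.91% and 9.55% of all genes. NALM6 replicate 1 stood apart at the shared IFITM region, at 0.651 against 3.46 and 4.02. Without it the difference at IFITM1 was -3.15 (limma adjusted p = 1.12e-07), IFITM3 could be tested and was lower in Raji (-2.39, adjusted p = 1.2e-05), and ISG15 was higher (1.13, adjusted p = 0.000344). For H3K4me3, IFIH1 (1.08) and BST2 (0.90) were higher in Raji and IFIT5 (-2.12) and EIF2AK2 (-1.49) lower, against 8.39% and 10.3% of all genes, and without NALM6 replicate 1 ISG15 was also higher (1.46, adjusted p = 0.000985). The counts were then 6 of 11 for H3K4me2 and 6 of 12 for H3K4me3, where 31% and 44% of all genes were called.

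In NALM6 against REH, limma called 0 of 8 genes for H3K4me2 and 0 of 9 for H3K4me3, where 9.14% and 6.93% of all genes were called. At unadjusted p under 0.05 there were 2 and 6, against 23.2% and 22.9% of all genes. Without NALM6 replicate 1 the counts were 7 of 16 and 9 of 13, where 29.1% and 43.6% of all genes were called, and 9 and 10 had an unadjusted p under 0.05, against 37.8% and 50.9% of all genes. The largest of those was ISG15, lower in NALM6 by log2 differences of -1.69 for H3K4me2 (limma adjusted p = 1.4e-08) and -2.42 for H3K4me3 (adjusted p = 2.46e-07). In the same fit HERC5 was higher in NALM6 for both marks (0.41 and 0.47), PARP14 was lower for H3K4me2 (-0.33) and higher for H3K4me3 (0.40), and IFITM1 was higher for H3K4me3 (1.41).

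H3K27me3 at the starts was thin and uneven between replicates. In Raji it covered the IFITM cluster: IFITM3 had a start peak in 2 untreated and 2 treated libraries, and IFITM1 and IFITM2 in 2 untreated and 1 treated library each. Peaks covered 0%, 91.4% and 94.1% of the IFITM1 gene body in untreated Raji and 0%, 0% and 78.8% in treated Raji. The libraries at 0 were those with few H3K27me3 peaks anywhere, since start peaks of all genes stood at 1.39%, 57.1% and 27.5% in untreated and 3.67%, 2.76% and 28.1% in treated Raji. The share of that in the IFITM1 values was not tested. In NALM6, IFITM3 was covered in 2 untreated and 2 treated libraries while IFITM1 had no H3K27me3 and carried both H3K4 marks in replicates 2 and 3. IFITM3 also had start peaks of each H3K4 mark in 4 of 6 NALM6 libraries. Over its promoter stretch printed above, H3K4me2 was called in 1 untreated NALM6 library and H3K4me3 in 0. In REH no IFITM gene had H3K27me3.

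In REH, H3K27me3 start peaks were called at other genes. ISG15 had one in 2 untreated and 2 treated REH libraries and 1 Raji library, and the REH region, chr1:992821-1007740, was called in all 6, at 2.23, 2.89 and 4.31 median regions untreated and 2.86, 2.93 and 2.81 treated. It covers the farthest annotated start of ISG15 at position 1001138, whereas the H3K4me2 region, chr1:1012581-1016340, lies over the RefSeq start, so the marks sit at different starts of 1 gene. OASL had H3K27me3 in 2 and 2 REH libraries and 1 Raji library, and no H3K4 start peak in REH, against H3K4me2 in all 6 Raji libraries. HERC5 had H3K27me3 in 2 untreated REH libraries and 1 treated library, at 0.106 to 0.338, over the promoter that also carried both H3K4 marks in all 6. IFI27, a mitochondrial protein of the FAM14 family, had H3K27me3 in 2 and 2 REH, 2 and 1 Raji and 0 and 1 NALM6 libraries, and neither H3K4 mark anywhere. DDX60, MX1 and EPSTI1 each had H3K27me3 in 1 untreated and 2 treated NALM6 libraries, at 0.022 to 0.0767, and MX1 carried H3K4me2 in 5 of 6 NALM6 libraries too.

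Over gene bodies, BST2, a short gene of chromosome 19, was the most covered by H3K4 marks in Raji, with group means from 95.1% to 98.7%. In untreated REH, H3K4me2 peaks covered 91.9% of BST2 and a median of 6.70% over the 42 genes. The highest H3K27me3 cover in REH was at ISG15, 42.4% untreated and 39.9% treated. The annotated body of ISG15 begins at position 1001138, upstream of the RefSeq start. Over the promoter stretch at chr1:1013247-1013496, H3K27me3 was called in 0 REH libraries. ISG15 bodies also held H3K27me3 peaks in 5 of 6 Raji libraries, covering 18.4% to 53.9% where called, and in 4 of 6 NALM6 libraries, covering 7.69% to 24.3%.

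Bryostatin against untreated cells asked whether the drug altered marks at these genes. No gene had a start peak in 3 of 3 libraries of 1 treatment and 0 of 3 of the other, in any line or mark. Among all protein-coding genes, a peak in treated libraries only was found for H3K4me2 at 0.04% in Raji and REH and 0.39% in NALM6 and for H3K27me3 at 0.005% in NALM6. A peak in untreated libraries only was found for H3K4me2 at 0.01% in REH, for H3K4me3 at 0.005% in Raji and for H3K27me3 at 0.02% in REH, and the other patterns at 0%. Of the 42 genes, limma called 0 in each of the 6 fits over 3 lines and 2 H3K4 marks, with counts at unadjusted p given for each below. With 3 libraries against 3, the smallest p that an exact two-sided permutation test of a single gene can give is 0.1, so none was run.

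Raji H3K4me3 had the widest shift. All 15 testable genes had a positive log2 difference, with a median of 0.41, while 48.6% of 9940 testable genes were positive, with a median of -0.0048. Limma called 0 of the 15, where 0.121% of all genes were called, and 4 had an unadjusted p under 0.05, as had 5.04% of all genes. Genes share libraries, so the 15 signs are not independent, and 9 of the 15 lay among the 2485 genes of lowest signal, of which 47.3% were positive. A testable region was called in all 6 libraries, and the smallest called region differed between them. It stood at 0.0188, 0.0789 and 0.0924 median regions in untreated and 0.0299, 0.0771 and 0.191 in treated libraries. A weak gene thus entered only if treated replicate 3 was high enough, and the part of this filter in the signs was not tested. All 15 were positive without scaling as well (median 0.67) and after quantile normalization, while 11 of 15 were positive for mean signal per base and 13 for maximum signal. ISG20 turned negative when untreated replicate 1, treated replicate 2 or treated replicate 3 was left out.

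IFIT5 stood at 0.272, 0.303 and 0.211 in untreated and 0.393, 0.435 and 0.440 in treated Raji, a log2 difference of 0.70 (SE 0.18, limma adjusted p = 0.462). Its treated libraries were all above the untreated ones, which held for 5.73% of all genes. IRF1 also did not overlap, at 2.05, 2.02 and 2.25 against 2.37, 2.34 and 2.41 (0.17, SE 0.09, adjusted p = 0.885 in limma). The largest difference, at IRF9, was 0.84 (SE 0.30, limma adjusted p = 0.755), and its groups overlapped, at 0.133, 0.192 and 0.149 against 0.183, 0.389 and 0.306. Its peaks averaged 1177 bases untreated and 2517 treated, and its mean signal per base was among those not positive.

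ISG15 depended on whether replicates were matched. Its Raji H3K4me3 values were 0.514, 0.767 and 0.785 untreated and 0.644, 1.10 and 1.24 treated, so replicate 1 was lowest in both groups. The log2 difference was 0.50 with limma adjusted p = 0.882. With the replicate number as a block it was 0.50 (SE 0.10, limma adjusted p = 0.0387), the only one of the 42 genes called, while calls over all regions went from 14 to 132. The pairing was taken from the correlation of same-numbered libraries, as no source says what a replicate number shares.

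**Figure D4:**
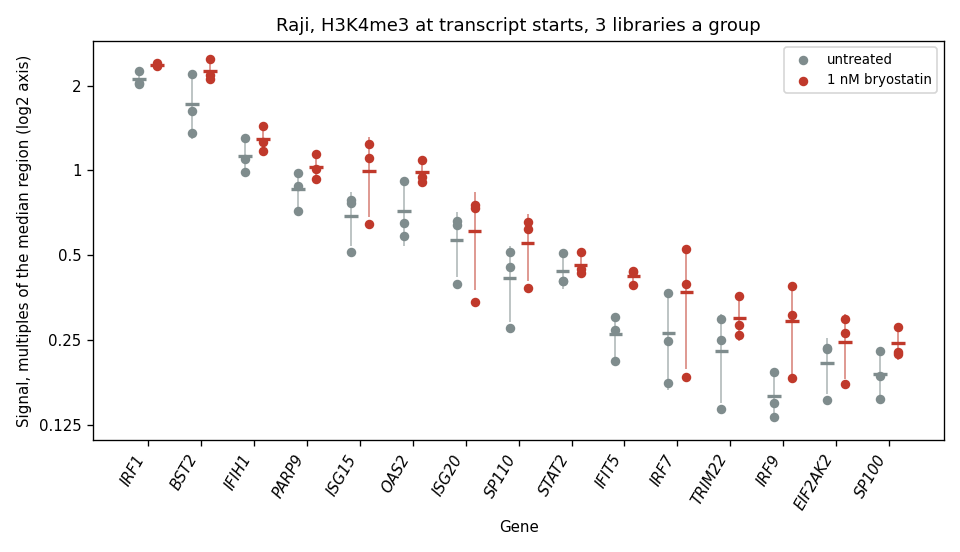
H3K4me3 signal of the 15 testable start regions in untreated (gray) and bryostatin-treated (red) Raji cells, 1 point per library, a bar at the mean and a line of 1 SD (n = 3), as multiples of the median region on a log2 axis. Every red mean is above its gray mean, and the points of IFIT5 and IRF1 do not overlap while those of the other 13 do.

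Raji H3K4me2 did not show the same shift. Of 17 testable genes, 10 had a positive difference (median 0.08), against 47.6% of all genes, and limma called 0 (0% of all genes), with 1 at unadjusted p under 0.05 (5.32% of all genes). EPSTI1, a gene first described in epithelial-stromal contacts, stood at 0.669, 0.534 and 0.721 untreated and 0.848, 0.938 and 0.766 treated (0.41, SE 0.18, limma adjusted p = 0.718), but its mean signal per base gave -0.17, and its peaks averaged 1647 and 3180 bases. BST2 stood at 2.12, 2.25 and 2.67 against 2.80, 2.71 and 2.68 (0.23, adjusted p = 0.729 in limma). Both genes were separated upwards, as were 5.62% of all genes. The share of the 42 genes with an H3K4me2 start peak was 53.2% ± 13.1 untreated and 65.9% ± 9.91 treated (SD, n = 3), and 16 to 26 and 23 to 31 genes overlap. The treated libraries were deeper, at 15.6 to 18.8 M reads against 6.70 to 13.9 M, and depth and treatment cannot be told apart there. For H3K4me3 the shares were 38.9% ± 3.64 and 46.8% ± 9.62, and for H3K27me3 18.3% ± 15.9 and 8.73% ± 13.1.

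In REH the H3K4me2 differences leaned downwards: 18 of 24 testable genes (22 distinct regions) were negative, with a median of -0.10, while 40.4% of all genes were positive. From the lowest to the highest of 4 equal groups by signal, 54.8%, 44.6%, 36.1% and 26.1% of all genes were positive, against 2 of 5, 2 of 7, 2 of 6 and 0 of 6 of these genes. Limma called 0 (0.456% of all genes), and 3 had an unadjusted p under 0.05 (6.5% of all genes). IFIT5 stood at 0.918, 0.909 and 0.905 untreated and 0.724, 0.717 and 0.847 treated (-0.26, SE 0.10, limma adjusted p = 0.357). HERC5 stood at 0.942, 0.913 and 1.07 against 0.833, 0.772 and 0.864 (-0.24, SE 0.10, adjusted p = 0.414 in limma). These 2 genes, MX1 (-0.15) and the region shared by CMPK2 and RSAD2 (-0.15, but 0.23 for mean signal per base and 0.0064 for maximum signal) were separated downwards, as were 7.7% of all genes.

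For REH H3K4me3, limma called 0 of 14 genes (12 regions, 1.41% of all genes), with 2 at unadjusted p under 0.05 (9.9% of all genes) and a median of -0.04. IFITM3 stood at 0.873, 0.894 and 1.15 untreated and 0.786, 0.814 and 0.842 treated (-0.24, SE 0.10, limma adjusted p = 0.394). IRF1 stood at 2.81, 2.87 and 2.89 against 2.496, 2.61 and 2.70 (-0.14, SE 0.06, adjusted p = 0.437 in limma), and the region of IFITM1 and IFITM2 at 0.756, 0.756 and 0.786 against 0.820, 0.825 and 0.866 (0.13, SE 0.07). IFITM3 and IRF1 did not overlap downwards (8.54% of all genes) and the shared IFITM1 region upwards (8.45%), so neighbours in 1 cluster lay on opposite sides of 0. Lineage genes were called by limma in the same fit: the precursor genes DNTT (-0.61, adjusted p = 0.00181) and IGLL1 (-0.73, adjusted p = 0.00313) and the B-cell gene CD79B (-0.38, adjusted p = 0.0414) were lower in treated REH, and CD22 (0.62, adjusted p = 0.00479) was higher. The precursor gene RAG1 stood at -0.14 and did not pass. Their part in the values of the interferon-stimulated genes was not tested.

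NALM6 left few genes to test. Limma called 0 of 5 for H3K4me2 and 0 of 3 for H3K4me3, with 0% of all genes called, and with 0 at unadjusted p under 0.05 in each against 0.829% and 0.276% of all genes under it. In simulated data of this spread, the test recovered 29.1% and 25.3% of changes of 1 log2 unit. PARP14 had the largest differences, 0.65 (SE 0.39) for H3K4me2 and 0.28 (SE 0.28) for H3K4me3, with replicate 1 at 0.361 untreated and 1.20 treated for H3K4me2 and the other 4 libraries between 0.923 and 1.07. Without replicate 1, 0 of 16 and 0 of 6 genes were called by limma and 1 in each had an unadjusted p under 0.05 (9.55% and 2.77% of all genes), with medians of -0.0094 and -0.08. Start peak shares were 37.3% ± 15.5 and 46.0% ± 17.2 for H3K4me2, 37.3% ± 14.0 and 27.8% ± 15.9 for H3K4me3, and 3.97% ± 4.96 and 7.94% ± 6.87 for H3K27me3, untreated and treated (SD, n = 3).

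**Figure D5:**
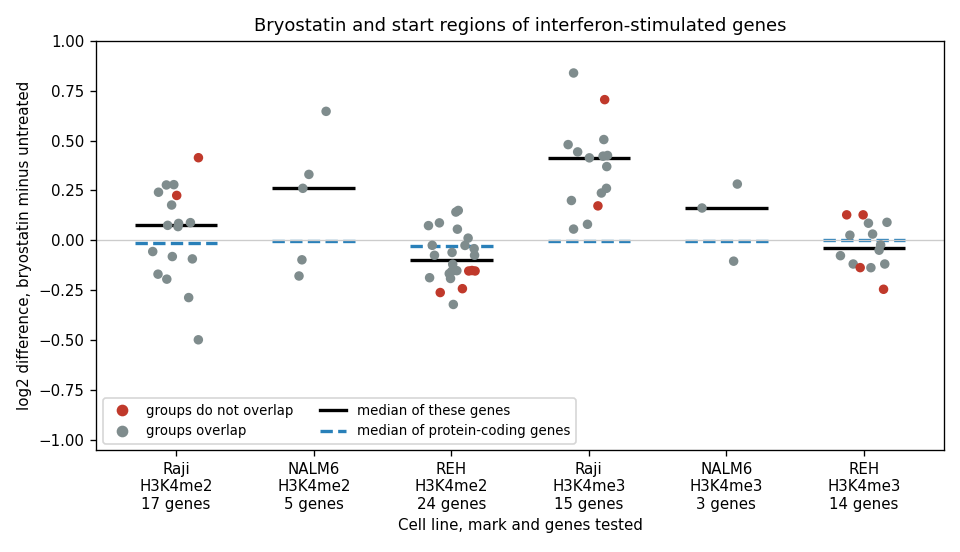
Log2 difference between bryostatin-treated and untreated libraries (y axis) for each testable gene (points) by line and mark (x axis), red where the 3 treated and 3 untreated values do not overlap. Solid bars are the medians of these genes and dashed bars those of all protein-coding genes; Raji H3K4me3, at 0.41 with all 15 points above 0, is farthest from its dashed bar.

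The interaction term between line and treatment, fitted over Raji and REH, tested whether the response differed. Limma called 0 of 14 genes for H3K4me2 and 0 of 7 for H3K4me3 (0.0126% and 0.0653% of all genes). At unadjusted p under 0.05 there were 1 and 2 (5.77% and 4.09% of all genes). IRF1 H3K4me3 was separated upwards in Raji (0.17) and downwards in REH (-0.14), and its interaction was 0.32 (SE 0.09, limma adjusted p = 0.753). IFIT5 H3K4me3 gave 0.62 (SE 0.21, limma adjusted p = 0.865) and BST2 H3K4me2 0.40 (SE 0.15, limma adjusted p = 0.656). All 7 H3K4me3 terms were positive (48% of all genes), with a median of 0.32, and 5 of 7 for mean signal per base.

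The rest of the pathway was described with 30 further genes in 3 lists. None of 6 interferon genes (IFNB1, IFNG, IFNL1, IFNA1, IFNE and IFNK) had an H3K4 start peak in any library. Of 11 receptor, kinase and SOCS genes, 10 in Raji, 4 in NALM6 and 11 in REH had H3K4me2 in all 6 libraries, as had 8, 6 and 10 of 13 nucleic acid sensing genes. These counts too have no share of all genes in all 6 libraries beside them. Under bryostatin limma called 1 of these genes in 1 of 6 tests, IFNGR1 (a chain of the interferon gamma receptor) for H3K4me3 in REH, at 0.679 ± 0.039 untreated and 0.952 ± 0.082 treated (SD, n = 3; log2 difference 0.49, SE 0.09, limma adjusted p = 0.0143), where 0.761% of all genes were called higher. In Raji H3K4me3, 6 of 16 pathway genes were positive, with a median of -0.05. Lineage genes tested in that fit were positive too, at 0.48 for CD22, 0.32 for MS4A1, 0.22 for RAG1 and between 0.0016 and 0.020 for CD79A, CD79B and PAX5, and limma called none of these 6.

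Between untreated Raji and REH, limma called 6 of 18 pathway genes higher in Raji and 2 lower for H3K4me2, and 7 of 12 higher and 1 lower for H3K4me3. Of all genes, 22.2% were called higher and 22.4% lower for H3K4me2, and 24.3% and 25.6% for H3K4me3. IFNLR1, the interferon lambda receptor chain, was higher in Raji for H3K4me2 (2.22), as was IRF5 (1.76), a factor acting below Toll-like receptors, while DHX58, an RNA helicase that tunes RNA sensing, was lower (-0.82). For H3K4me3, IFNAR2, a chain of the type I interferon receptor, was higher in Raji (1.01), as was the adaptor MYD88 (1.07), and the kinase JAK2 was lower (-0.79).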

How the data were processed

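Cut&Tag peak calls were analysed for 54 libraries of 3 cell lines, 2 treatments and 3 marks (3 replicates each). The 18 IgG samples were not used here. Per the submitters' processing notes and the study's methods, the authors used bcl2fastq, Trim Galore, Bowtie2 (hg38), SEACR and DESeq2 (versions not given in the sources used here), normalized coverage as RPKM and called stringent peaks in each library separately. The deposited files give, for each peak, its total and maximum coverage signal. Of these, 48 libraries show 10 bp bins and RPKM steps, and 6 (NALM6 replicate 1) another scaling. The labels name the repressive mark H3K27me3, and the study's text also writes H3K27me2.

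Peaks of a comparison were merged at 1 bp overlap, and regions called in all its libraries were kept. Regions called in some libraries have no value in the others, so those genes are described by presence only. Log2 total signal, centred on each library's median region, was tested with limma 3.58.1 (lmFit, eBayes with trend; R 4.3.3, GenomicRanges 1.54.1, data.table version 1.17.8), with Benjamini-Hochberg adjustment over all regions and a threshold of 0.05. limma was used because the signal is not a count. A gene took the tested region with the highest mean signal within 1 kb of any GENCODE 44 transcript start. Centring removed median shifts (log2) of 0.24 (Raji), 0.059 (NALM6) and -0.02 (REH) for H3K4me2 and 0.26, 0.10 and 0.057 for H3K4me3 under bryostatin, and of -0.25 and -0.18 (Raji minus REH), 1.18 and 1.17 (Raji minus NALM6) and -1.47 and -1.35 (NALM6 minus REH) between lines. H3K27me3 was described by presence in each line and not fitted. Regions called in all 6 libraries numbered 552 in Raji, 258 in NALM6 and 8324 in REH. Python 3.11.15, pandas 2.3.3 and matplotlib 3.10.9 were used for the rest. Promoter sequences are from RefSeq.

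Same-numbered libraries deviated together (correlation over 0.1 in each of 3 pairs) for bryostatin in Raji H3K4me3 (0.48 to 0.54), NALM6 (0.40 to 0.45 and 0.63 to 0.68) and REH (0.13 to 0.21 and 0.18 to 0.31), and not in Raji H3K4me2 or between lines. The fits were tested on simulated data: for bryostatin in Raji H3K4me3, over 9040 regions, 74.2% of changes of 1 log2 unit and 99.1% of 2 were recovered. For bryostatin in NALM6, 29.1% and 81.6% were recovered for H3K4me2 (4128 regions) and 25.3% and 66.7% for H3K4me3 (3838 regions). Named with full values were genes past adjusted p 0.05 (up to 5 by size), the 3 largest among those whose groups do not overlap, genes with start peaks in 3 of 3 libraries of 1 group and 0 of 3 of the other, and for H3K27me3 genes with start peaks in at least 2 of 3. IRF9 and ISG15 in Raji, PARP14 in NALM6 and the genes named as exceptions were chosen after their values were seen. A result on the full B-cell marker list is not reported here. The genes and lists were chosen with earlier results of these data known. Alternatives were other scalings, signal measures, windows, merging, region filters, left-out replicates and a replicate block.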

Additional observations from a re-analysis of the deposited data

How the results depend on the processing

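Over 361 alternative values of the comparisons, 332 kept their count within 1.5 times or moved by less than 1 SD, and 29 did not. Of 564 for named genes, 509 kept direction and side of the threshold, 32 lost the call, 17 gained it and 6 reversed. The causes were not tested. The counts of called genes in the refits below have no share of all genes in the same refit beside them. In the main fits, 44.7% (H3K4me2) and 49.9% (H3K4me3) of all genes were called for Raji minus REH. The shares were 17.5% and 18.7% for Raji minus NALM6, and 9.14% and 6.93% for NALM6 minus REH.

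With the replicate number as a block, 1 gene (ISG15) was called in Raji H3K4me3. The block changed no other call under bryostatin, and between lines, where the samples share only a number, it gave 10 and 7 (Raji minus REH), 4 and 4 (Raji minus NALM6) and 0 and 0 (NALM6 minus REH) called genes for H3K4me2 and H3K4me3.

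For Raji minus REH, H3K4me2, 9 genes were called, 5 with only the 5 prime end of each gene and 3 with peaks above the median signal. For H3K4me3, 7 were called, 3 by mean signal per base and 1 with peaks above the median signal. Raji minus NALM6, H3K4me2, went from 4 to 2 by maximum signal, 1 by mean signal, 0 without centring, 2 at 5 prime ends, 0 in peaks above the median signal and 2 with all libraries and a treatment term, and from 1 (without Raji replicate 3) to 6 (without NALM6 replicate 1) when leaving out 1 library, with 2 in 4 other cases (Raji replicate 1 or 2, NALM6 replicate 2 or 3). For H3K4me3 it went from 4 to 2 by mean signal, 0 without centring, 0 above the median signal and 0 with all libraries, and from 3 to 6 leaving out 1 library. NALM6 minus REH, H3K4me2, went from 0 to 3 with regions called in 2 of 3 libraries, and from 0 to 7 leaving out 1 library, the 7 being without NALM6 replicate 1. For H3K4me3 it went from 0 to 2 by quantile normalization, 5 with regions in 2 of 3, 1 above the median signal, 2 with all libraries, and from 0 to 9 leaving out 1, the 9 again without NALM6 replicate 1.

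Reversed were EPSTI1 in Raji H3K4me2 (-0.17 by mean signal), CMPK2 in REH H3K4me2 (0.0064 by maximum and 0.23 by mean signal), IRF7 in Raji minus REH H3K4me3 (0.018 by quantile normalization), and without centring ISG20 (-0.55, H3K4me2) and HERC5 (-0.68, H3K4me3) in NALM6 minus REH. Every refit without centring that includes NALM6 replicate 1 mixes its other scaling with that of the remaining libraries. An absent peak cannot be told from a weak one at these depths.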
